A study of Mus musculus with 468 samples.

Results

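Adipose RNA-seq libraries of Diversity Outbred mice were selected by their Fkbp5 RNA, and those with the most were compared with those with the least. Diversity Outbred mice descend from an intercross of 8 inbred founder strains, so each animal carries its own mosaic of founder haplotypes. The libraries came from the gonadal fat pad, a visceral fat depot next to the gonad, of mice that all ate the same diet, high in fat (45% by the labels) and sugar. The labels carry no treatment, sex, age or batch, each library is 1 mouse, and the collection was assembled to relate natural variation in adipose transcripts to metabolic traits. The libraries were first divided by Ddx3y, a gene of the Y chromosome: 48.5% had a count of 0 (the Ddx3y-zero libraries) and the others a count above 0 (the Ddx3y-positive libraries). Within each stratum the lowest 25% (low-Fkbp5) and the highest 25% (high-Fkbp5) were chosen by counts per 1000000 (CPM) of the column sum. This gave 56 against 56 Ddx3y-zero and 60 against 60 Ddx3y-positive libraries, 49.6% of the collection, and the libraries between them are called the middle libraries. Since Fkbp5 chose the groups, nothing assigned a mouse to one, and every difference below is one between mice that differed in Fkbp5, not the response to a hormone.

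Fkbp5 encodes FKBP51, an immunophilin co-chaperone that binds the HSP90 complex of steroid receptors and lowers the affinity of the glucocorticoid receptor for its hormone. The receptor, bound by corticosterone in mice, enters the nucleus and activates genes next to its binding elements, among them Fkbp5 itself, which closes a short negative feedback loop. In adipose tissue glucocorticoids are known to alter fat storage and release, insulin sensitivity, inflammation and the circadian clock, and circulating corticosterone follows both time of day and stress. Hormone levels and the time of harvest were not analysed here.

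The libraries held 35.3 M to 137.8 M expected counts each (M, 1000000 counts), and the median was 82.04 M. High-Fkbp5 minus low-Fkbp5 means were 0.775 M in the Ddx3y-zero and 0.422 M in the Ddx3y-positive libraries (2-sided permutation tests with 100000 resamples, adjusted p = 0.89 for each). In the Ddx3y-zero libraries the groups differed in mouse number, with a mean of 265.3 in the low-Fkbp5 and 185.4 in the high-Fkbp5 group (adjusted p = 0.023). Of the 56 high-Fkbp5 libraries 21, and of the 56 low-Fkbp5 ones 6, came from the lowest 20% of the mouse numbers. The TMM factor, which rescales a library for the share of its counts that a few abundant genes take, was also higher in the high-Fkbp5 Ddx3y-zero libraries, with means of 0.982 against 0.923 (adjusted p = 0.023), and 1.07 against 1.03 in the Ddx3y-positive ones (adjusted p = 0.051). Mitochondrially encoded genes took a median of 9.65% of counts in low-Fkbp5 and 8.04% in high-Fkbp5 Ddx3y-zero libraries, and 4.76% and 4.96% in the Ddx3y-positive ones. These shares matter because the column sum is the divisor of the CPM that ranked Fkbp5. When the libraries were ranked by Fkbp5 CPM after TMM instead, 50 of the 56 high-Fkbp5 and 49 of the 56 low-Fkbp5 Ddx3y-zero libraries, and 57 and 56 of 60 Ddx3y-positive ones, stayed in their group. For named genes whose call ended with this ranking, both values are given.

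After their high values were seen, 4 genes of tissues other than fat (Ceacam10, Adam28, Cyp11a1 and Ckm) were used to mark libraries, and 8 libraries, 7 of them high-Fkbp5 and none low-Fkbp5, held 1 of these genes above 100 CPM (after TMM). "Libraries carrying another tissue's transcripts" below means these 8 only. Other tissues' markers were also found in low-Fkbp5 libraries: 8 liver markers summed to as much as 1807 and 1415 CPM in low-Fkbp5 Ddx3y-zero and Ddx3y-positive libraries, and to 1546 and 367.3 CPM in high-Fkbp5 ones. The marked Ddx3y-zero libraries were DO032 and DO069, with 504.6 and 823.6 CPM of Cyp11a1, the enzyme that starts steroid hormone synthesis, and DO164 and DO326, with 667.8 and 110.4 CPM of Ckm, the muscle creatine kinase. The marked Ddx3y-positive libraries were DO283 and DO288, with 17019 and 610.3 CPM of Ceacam10, and DO379, with 1079.6 CPM of Adam28, a gene of epididymal epithelium. A middle library, DO194, was marked as well, with 198.3 CPM of Adam28. The 10 listed adipocyte markers summed to medians of 22722 and 22051 CPM in low-Fkbp5 and high-Fkbp5 Ddx3y-zero libraries and 20291 and 19941 CPM in Ddx3y-positive ones. Fewer cells of a type and less RNA per cell cannot be told apart in bulk tissue.

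Fkbp5 (ENSMUSG00000024222, GRCm38 chr17:28399094-28517527, minus strand) defined the groups, so its values are a description. In the Ddx3y-zero libraries it ran from 12.7 to 39.6 CPM (median 30.6) in the low-Fkbp5 and from 81.7 to 403.1 CPM (median 113.8) in the high-Fkbp5 group, a 4.60-fold ratio of the means. In the Ddx3y-positive libraries it ran from 28.8 to 64.6 CPM (median 54.6) and from 115.7 to 335.6 CPM (median 147.7), a 3.02-fold ratio. Over all libraries the median was 86.9 CPM in the Ddx3y-positive and 59.3 CPM in the Ddx3y-zero stratum, and a library at 65 to 81 CPM was a middle library in either stratum. The boundaries were not gaps: the last library inside the low-Fkbp5 group had 39.6 and the next 39.8 CPM in the Ddx3y-zero stratum (64.6 and 65.1 in the Ddx3y-positive one), and the last outside and the first inside the high-Fkbp5 group had 81.4 and 81.7 CPM (115.74 each). The plot of ranked Fkbp5 values shows the same continuous rise with a short steep tail at the high end.

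**Figure D1:**
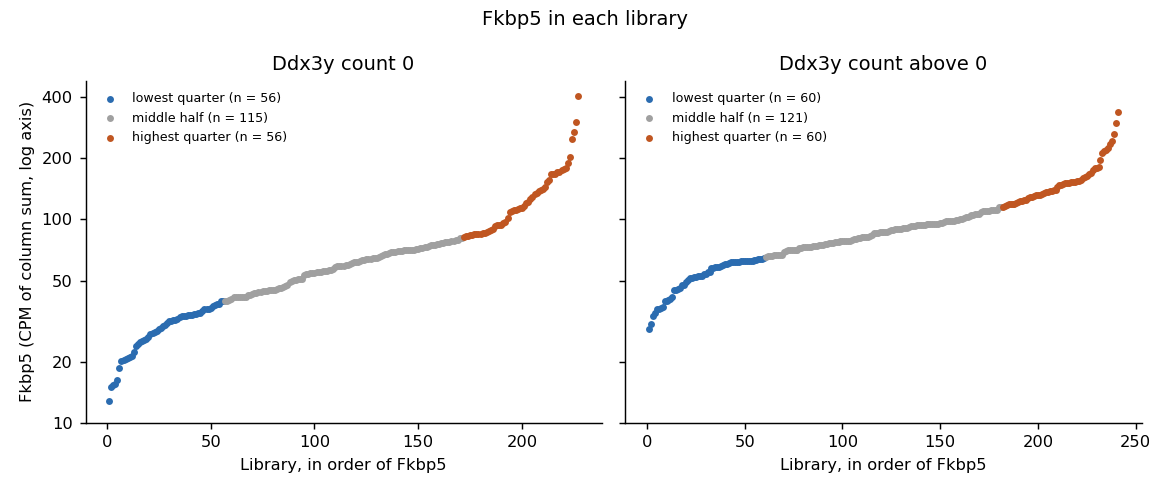
Fkbp5 in every library, in rising order within the Ddx3y-zero (left) and Ddx3y-positive (right) strata. Each point is 1 library, the vertical axis is CPM of the column sum on a log axis, and colours mark the lowest 25%, the middle libraries and the highest 25%. Values rise without a break at either boundary and reach 403.1 and 335.6 CPM.

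All differences below are log2 of high-Fkbp5 over low-Fkbp5 with their standard error, from edgeR's quasi-likelihood test with TMM scaling, and adjusted p-values are Benjamini-Hochberg values over all 18370 genes tested. Gene levels are CPM after TMM. At an adjusted p under 0.05, 2375 genes (12.9%) were higher and 2203 (12%) lower in high-Fkbp5 Ddx3y-zero libraries, and 3883 (21.1%) were higher and 3200 (17.4%) lower in high-Fkbp5 Ddx3y-positive libraries. Calls of at least 1.5-fold made up 3.1% of genes higher and 1.02% lower in the Ddx3y-zero, and 6.24% and 1.71% in the Ddx3y-positive libraries. Ranked by Fkbp5 after TMM, the Ddx3y-zero calls fell to 5.75% higher and 2.41% lower, while the Ddx3y-positive calls were 20.3% and 16.5%. Scaled by total counts alone, which moved the median of all genes from 0.02 to 0.11 in the Ddx3y-zero and from 0.01 to 0.06 in the Ddx3y-positive libraries, they were 5518 higher and 1006 lower, and 4960 higher and 1584 lower. A total of 1732 genes were called in both strata. Of these 1181 (6.43% of genes tested) had the same direction, 782 (4.26%) higher and the others (2.17%) lower, and 3.0% of genes tested had opposite directions. The strata share no library. Counts of called genes in each list below stand beside these shares of all genes, for the ranking concerned.

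Most of the listed targets of the glucocorticoid receptor were higher in high-Fkbp5 fat of both strata. The 29 targets, all tested, were listed from textbook knowledge with earlier results of these data known, so the list is not independent of the data. Of them 23 were higher and 2 lower in the Ddx3y-zero libraries (median 0.54, against 0.02 over all genes) and 24 were higher and 2 lower in the Ddx3y-positive libraries (median 0.60, against 0.01), with 23 higher in both. Over all genes 12.9% were higher and 12% lower in the Ddx3y-zero and 21.1% and 17.4% in the Ddx3y-positive libraries, and 4.26% were higher in both. Over the 14 alternatives run, the number of targets higher stayed between 22 and 24 and between 22 and 25.

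Tsc22d3 encodes GILZ, the leucine zipper protein through which glucocorticoids restrain inflammatory transcription. It ran from 48.1 to 201.7 CPM (median 114.04) in low-Fkbp5 and from 107.5 to 692.99 CPM (median 275.9) in high-Fkbp5 Ddx3y-zero libraries, and from 96.8 to 264.1 CPM (median 161.2) and 112.8 to 471.5 CPM (median 248.7) in the Ddx3y-positive ones. The groups overlapped, but 55 of 56 and 53 of 60 high-Fkbp5 libraries lay above the low-Fkbp5 median. The difference was 1.26 ± 0.08 (adjusted p = 8.0e-32) and 0.65 ± 0.08 (adjusted p = 1.5e-11).

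Mertk, a receptor tyrosine kinase with which macrophages recognise and engulf apoptotic cells, had the smallest p-value of all targets in the Ddx3y-zero stratum. It ran from 12.9 to 38.8 CPM (median 28.4) in low-Fkbp5 and from 26.1 to 191.4 CPM (median 56.4) in high-Fkbp5 Ddx3y-zero libraries, and 50 of the 56 high-Fkbp5 libraries exceeded every low-Fkbp5 one. In the Ddx3y-positive stratum it ran from 25.5 to 55.02 CPM (median 40.4) and 30.1 to 139.9 CPM (median 59.1), and 35 of 60 exceeded every low-Fkbp5 library. The differences were 1.15 ± 0.08 (adjusted p = 4.1e-32) and 0.60 ± 0.07 (adjusted p = 4.1e-12).

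Hif3a, an inhibitory relative of the hypoxia-inducible factors, showed the largest difference of the targets, averaged over the strata. Its values were 0.57 to 6.2 CPM (median 1.88) against 1.32 to 23.02 CPM (median 6.99) in Ddx3y-zero and 0.716 to 6.1 CPM (median 2.31) against 1.96 to 18.02 CPM (median 7.9) in Ddx3y-positive libraries. That is 1.93 ± 0.14 (adjusted p = 6.1e-28) and 1.57 ± 0.13 (adjusted p = 6.9e-21). Medians rose at each step from the low group through the lower and upper middle to the high group, from 1.88 through 2.77 and 4.54 to 6.99 CPM in the Ddx3y-zero libraries.

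Fam107a, an actin-binding protein induced by stress hormones, and Zbtb16, the zinc finger repressor PLZF, differed by similar amounts in both strata. Fam107a ran from 2.19 to 15.4 CPM (median 8.2) in low-Fkbp5 and 7.6 to 34.1 CPM (median 18.3) in high-Fkbp5 Ddx3y-positive libraries, where 59 of 60 were above the low-Fkbp5 median. The differences were 1.14 ± 0.10 and 1.11 ± 0.10 for Fam107a (adjusted p = 2.0e-19 and 2.9e-19). They were 0.90 ± 0.11 and 0.93 ± 0.10 for Zbtb16 (adjusted p = 1.6e-12 and 6.9e-14). The kinase gene Map3k6 differed by 1.05 ± 0.08 and 0.72 ± 0.08 (adjusted p = 2.0e-26 and 4.2e-15). Arrdc2, an arrestin domain protein, differed by 0.72 ± 0.07 and 0.79 ± 0.07 (adjusted p = 4.1e-16 and 3.0e-19).

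Metallothioneins are small proteins that bind zinc and copper, and of the targets higher in both strata Mt2 had the largest gap between the strata. It ran from 1.60 to 22.4 CPM (median 6.9) in low-Fkbp5 and 4.07 to 95.002 CPM (median 30.7) in high-Fkbp5 Ddx3y-zero libraries, and 38 of 56 exceeded every low-Fkbp5 library. In the Ddx3y-positive libraries it ran from 7.1 to 83.8 CPM (median 26.7) and 9.9 to 166.9 CPM (median 42.4), so the low-Fkbp5 medians of the strata lay far apart and the high-Fkbp5 ranges overlapped. The differences were 2.19 ± 0.17 (adjusted p = 2.9e-25) and 0.67 ± 0.16 (adjusted p = 3.2e-04). For Mt1 they were 1.12 ± 0.12 and 0.64 ± 0.11 (adjusted p = 2.6e-15 and 1.4e-06).

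A further 7 targets, transcription factors and growth regulators, were higher in both strata. Klf9 ran from 46.5 to 132.6 CPM (median 73.9) and 70.2 to 187.3 CPM (median 104.2) in the Ddx3y-zero groups and differed by 0.49 ± 0.06 and 0.50 ± 0.05 (adjusted p = 1.5e-13 and 6.4e-15). Klf15, which drives amino acid breakdown, differed by 0.47 ± 0.10 and 0.66 ± 0.10 (larger adjusted p 1.3e-04). Cebpd, an early factor of adipocyte differentiation, differed by 0.86 ± 0.12 and 0.60 ± 0.12 (larger adjusted p 9.2e-06). Ddit4, an inhibitor of mTORC1, differed by 0.94 ± 0.13 and 0.60 ± 0.13 (larger adjusted p 5.2e-05). Errfi1, an inhibitor of the EGF receptor, differed by 0.77 ± 0.12 and 0.63 ± 0.11 (larger adjusted p 1.3e-06). The kinase gene Sgk1 differed by 0.43 ± 0.10 and 0.60 ± 0.09 (larger adjusted p 2.9e-04). Cdkn1a, the cell cycle inhibitor p21, differed by 0.65 ± 0.09 and 0.22 ± 0.09 (larger adjusted p 0.035). DO349, a high-Fkbp5 Ddx3y-zero mouse, held the maximum of its group for Tsc22d3, Mertk, Klf9, Ddit4 and Errfi1, with 389.3 CPM of Ddit4 and 576.6 CPM of Errfi1.

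Of the metabolic, inflammatory and secreted targets, 6 were higher in both strata. Lpin1, a phosphatidate phosphatase of triglyceride synthesis, differed by 0.52 ± 0.10 and 0.44 ± 0.10 (larger adjusted p 8.5e-05). Glul, glutamine synthetase, differed by 0.34 ± 0.09 and 0.40 ± 0.08, and the sulfotransferase Sult1a1 by 0.54 ± 0.09 and 0.28 ± 0.08 (largest adjusted p 0.004). Nfkbia, the inhibitor of NF-kappaB, differed by 0.33 ± 0.07 and 0.25 ± 0.07, and the small GTPase Rhob by 0.45 ± 0.08 and 0.26 ± 0.07 (largest adjusted p 0.0023). The lipocalin Lcn2 differed by 1.36 ± 0.28 and 2.01 ± 0.27 (adjusted p = 4.3e-05 and 1.8e-10). Its high-Fkbp5 maximum among Ddx3y-positive libraries, 1234 CPM, was DO379, the high-Fkbp5 library marked by Adam28, and without the libraries carrying another tissue's transcripts the Ddx3y-positive difference was 1.33 (adjusted p = 1.3e-06).

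The other 6 targets were not higher in both strata. Cebpb, a partner of the receptor in adipocytes, was lower in both strata at -0.50 ± 0.12 and -0.32 ± 0.11 (adjusted p = 4.1e-04 and 0.018), but with the ranking after TMM the Ddx3y-zero value was -0.04 (adjusted p = 0.89). Bcl6, a repressor, was lower in the Ddx3y-zero libraries at -0.31 ± 0.11 (adjusted p = 0.028), a call also lost with the ranking after TMM (-0.16, adjusted p = 0.44). Angptl4, an inhibitor of lipoprotein lipase, was lower in the Ddx3y-positive libraries at -0.21 ± 0.05 (adjusted p = 2.5e-04), against 0.08 ± 0.05 in the Ddx3y-zero ones. Txnip, which limits glucose uptake, was higher there at 0.29 ± 0.07 (adjusted p = 5.7e-04), against 0.08 ± 0.07. Pdk4, which blocks pyruvate oxidation, had values of -0.37 ± 0.17 and 0.30 ± 0.17 and the phosphatase gene Dusp1 of -0.10 ± 0.10 and -0.001 ± 0.09, none of them called, though with the ranking after TMM Pdk4 was higher in Ddx3y-positive libraries at 0.39 (adjusted p = 0.0499).

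**Figure D2:**
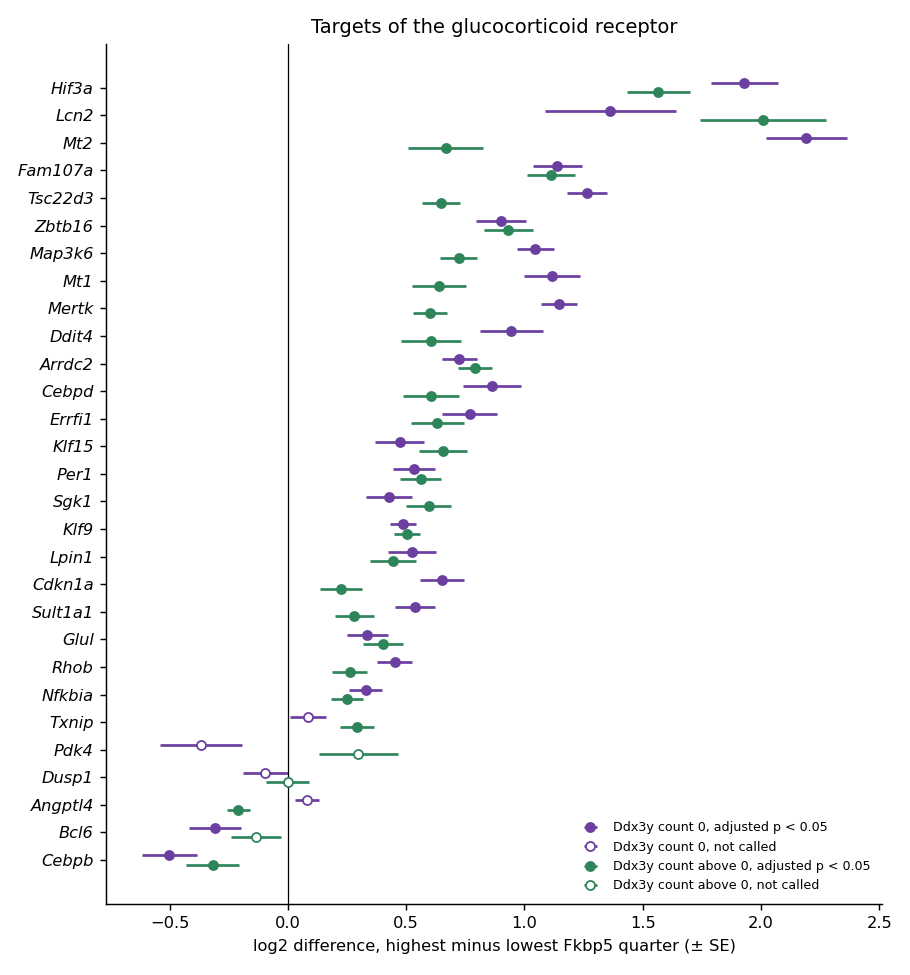
Log2 difference between high-Fkbp5 and low-Fkbp5 groups for the 29 listed targets of the glucocorticoid receptor, with standard errors, in Ddx3y-zero (purple, 56 against 56) and Ddx3y-positive (green, 60 against 60) libraries. Filled points have an adjusted p under 0.05. The 23 genes called higher in both strata lie right of zero, Hif3a highest by the mean of the strata, and Cebpb lies left of it in both.

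The receptor binds a palindrome of 2 short arms 3 bases apart, which was searched as GNACANNNTGTNC (its own reverse complement, so 1 search covers both strands) in RefSeq promoters of GRCm38.p6, from 250 bases before to 50 after each annotated start. It occurred in 0.392% of the 16090 promoters of the genes tested. Among genes higher in both strata 12 of 747 promoters (1.61%) held it, among genes lower in both 0.737%, and among the listed targets 6 of 39 (15.4%), from 5 of the 26 targets with a promoter there. Those 5 and Slc10a6, which tracked Fkbp5 in the middle libraries, are shown because they pair a transcript called in at least 1 stratum with a match, in capitals, with 14 bases on each side:
Sgk1, chr10:21993688-21993728, plus strand: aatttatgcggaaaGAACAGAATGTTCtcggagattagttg
Map3k6, chr4:133240623-133240663, plus strand: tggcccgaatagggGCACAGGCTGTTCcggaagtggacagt
Mt1, chr8:94178981-94179021, plus strand: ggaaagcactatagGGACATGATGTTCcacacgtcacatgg
Fam107a, chr14:8309871-8309911, minus strand: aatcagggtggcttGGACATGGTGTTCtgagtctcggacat
Txnip, chr3:96557771-96557811, plus strand: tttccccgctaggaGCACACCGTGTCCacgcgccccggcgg
Slc10a6, chr5:103629540-103629580, minus strand: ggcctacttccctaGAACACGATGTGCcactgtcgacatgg
All 6 matches lie before the RefSeq start whose promoter was searched. Those of Sgk1 and Fam107a lie inside the gene spans of the deposited annotation (chr10:21882184-21999903 and chr14:8296274-8318023). The sets compared overlap. Sgk1, Map3k6, Mt1, Fam107a and Slc10a6 are among the 11 genes with a match that were higher in both strata. A match is a description of these letters, and receptor binding was not measured.

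The middle libraries hold mice that were in neither group, ranked by the same Fkbp5 CPM. In the middle libraries the slope of each gene per doubling of Fkbp5 CPM was fitted with stratum as a covariate, and 73 genes (0.397%) rose and 69 (0.376%) fell with Fkbp5. Of the 782 genes higher in both strata, 89.1% had a slope above 0 and 57 were called with it (median slope 0.14). Over all genes tested 49.3% had a slope above 0 (median -0.0015). Of the genes lower in both, 90.2% had a slope below 0 and 4 were called (median -0.07). Of the 29 receptor targets 9 rose and none fell by edgeR (median 0.35): Hif3a at 1.16 ± 0.17 (adjusted p = 9.2e-08), Mertk at 0.54 ± 0.07 (adjusted p = 5.0e-08), Fam107a at 0.61 ± 0.11, Tsc22d3 at 0.55 ± 0.10, Mt1 at 0.54 ± 0.13, Map3k6 at 0.44 ± 0.09, Arrdc2 at 0.39 ± 0.08, Sgk1 at 0.35 ± 0.09 and Klf9 at 0.30 ± 0.06 (largest adjusted p 0.036). Each slope spans both strata, and slopes within a stratum were not tested. Spearman correlations with Fkbp5 in Ddx3y-zero and Ddx3y-positive middle libraries were 0.40 and 0.03 for Sgk1 and 0.35 and 0.06 for Mt1. They were 0.45 and 0.17 for Tsc22d3, 0.46 and 0.18 for Map3k6 and 0.47 and 0.36 for Hif3a. Those of Arrdc2 were 0.27 and 0.24, of Klf9 0.26 and 0.29, of Fam107a 0.31 and 0.40 and of Mertk 0.42 and 0.47. Over all genes 0.773% were called, and by limma on the deposited variance-stabilised values 36 genes were, of which 34 rose. With Fkbp5 scaled by TMM both for the choice of the middle libraries and for the slope, an alternative chosen after seeing the data, 98 genes (0.533%) rose and 1.15% fell. Then 11 receptor targets rose and none fell by edgeR (median 0.30): Mt1 and Sgk1 no longer passed, and Zbtb16, Klf15, Glul and Sult1a1 did. Of the 782 genes higher in both strata 78.1% had a slope above 0, with 73 called above and 7 below 0, beside 45.4% with a slope above 0 over all genes.

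Among genes averaging 5 CPM or more, the 8 whose levels ranked most like Fkbp5 across the middle libraries, by the mean Spearman correlation within each stratum (0.45 for Mertk to 0.32 for Bcl2l1), were Mertk, Aff1, Fam107a, Foxo3, Slc10a6, Mlxip, Map3k6 and Bcl2l1. All were higher in both strata. Their slopes in the middle libraries were also called, but the same libraries and Fkbp5 values picked these genes, so that is no separate test. Hif3a, with a mean of 4.88 CPM under that minimum, had a mean correlation of 0.41, second to Mertk. Aff1, a scaffold of the super elongation complex, ran from 83.9 to 138.5 CPM (median 108.7) and 101.3 to 267.8 CPM (median 171.3) in the Ddx3y-zero groups, where 43 of 56 high-Fkbp5 libraries exceeded every low-Fkbp5 one. It differed by 0.65 ± 0.05 and 0.35 ± 0.04 (adjusted p = 2.1e-29 and 4.3e-11), with a slope of 0.32 ± 0.05 (adjusted p = 4.8e-07). Slc10a6, a transporter of sulfated steroids, ran from 3.19 to 12.1 CPM (median 7.5) and 4.76 to 36.2 CPM (median 15.8) in Ddx3y-zero libraries and differed by 1.11 ± 0.09 and 0.60 ± 0.09 (adjusted p = 1.7e-23 and 3.5e-09). Mlxip, a glucose-sensing factor related to ChREBP, differed by 0.40 ± 0.03 and 0.34 ± 0.03 (adjusted p = 1.6e-21 and 3.1e-17). Bcl2l1, the survival protein BCL-XL, differed by 0.51 ± 0.05 and 0.50 ± 0.05 (adjusted p = 2.8e-15 and 1.1e-15).

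The receptor's own transcript was lower in both strata. Nr3c1, the glucocorticoid receptor gene, ran from 137.5 to 304.5 CPM (median 225.2) in low-Fkbp5 and 115.6 to 238.3 CPM (median 175.1) in high-Fkbp5 Ddx3y-zero libraries, where 1 of 56 high-Fkbp5 libraries was above the low-Fkbp5 median. In the Ddx3y-positive libraries it ran from 135.6 to 256.4 CPM (median 195.4) and 84.9 to 222.4 CPM (median 173.5). The differences were -0.33 ± 0.04 (adjusted p = 2.0e-12) and -0.15 ± 0.04 (adjusted p = 6.0e-04). In the middle libraries the slope of Nr3c1 by edgeR was not called, at -0.05 ± 0.05 per doubling of Fkbp5 (adjusted p = 0.87). Nr3c2, the mineralocorticoid receptor, was lower in Ddx3y-zero libraries at -0.41 ± 0.06 (adjusted p = 5.7e-10), with -0.07 ± 0.05 in Ddx3y-positive ones. H6pd, which supplies NADPH for the reactivation of glucocorticoids inside cells, was higher in both at 0.26 ± 0.07 and 0.19 ± 0.07 (adjusted p = 0.0019 and 0.015). Hsd11b1, the reductase that uses it, was higher in Ddx3y-positive libraries at 0.53 ± 0.18 (adjusted p = 0.011), and in Ddx3y-zero libraries it had 0.25 ± 0.18 (adjusted p = 0.32), which became 0.69 (adjusted p = 0.0027) with the ranking after TMM. Of the 17 genes of this list 2 were higher and 7 lower in the Ddx3y-zero, and 2 higher and 1 lower in the Ddx3y-positive libraries (medians -0.11 and -0.01). The shares of all genes were 12.9% and 12%, and 21.1% and 17.4%. Fkbp4, the co-chaperone that opposes FKBP51, and Hsp90aa1 were lower in Ddx3y-zero libraries at -0.24 ± 0.07 and -0.22 ± 0.07 (adjusted p = 0.0061 and 0.014), and with the ranking after TMM at -0.07 and -0.07 (adjusted p = 0.63 and 0.66). With that ranking, and with scores of adipocyte and macrophage markers as covariates, the list held 2 higher and 2 lower in the Ddx3y-zero libraries. The shares of all genes were then 5.75% and 2.41%, and 9.97% and 8.64%.

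**Figure D3:**
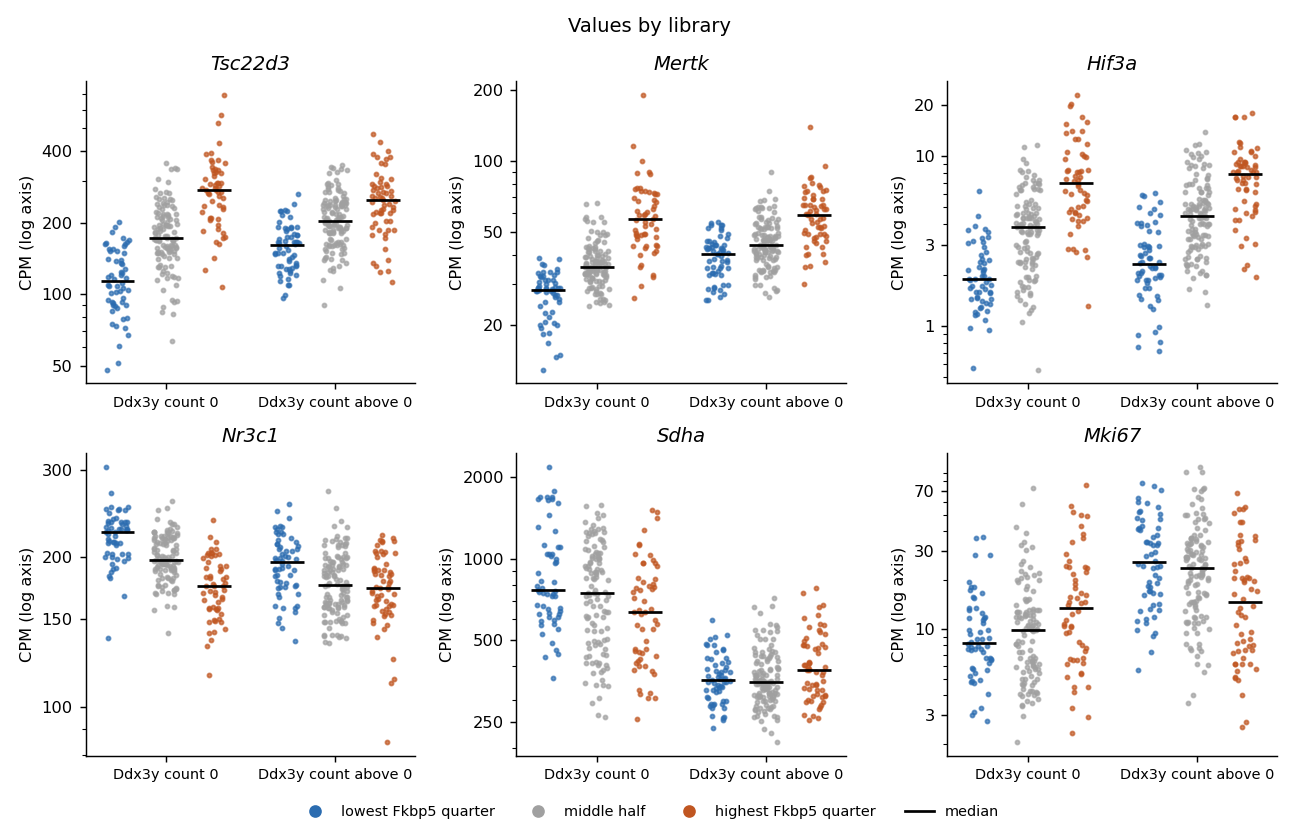
CPM after TMM of 6 genes in every library, on log axes, by stratum and Fkbp5 group, with the median as a bar. Tsc22d3, Mertk and Hif3a step up from low to high Fkbp5 in both strata, Nr3c1 steps down in both, Sdha steps down in the Ddx3y-zero libraries, and Mki67 goes up in Ddx3y-zero and down in Ddx3y-positive libraries. With the ranking after TMM, Sdha and Mki67 were not called in the Ddx3y-zero libraries.

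Some clock genes, Per1 and Per2 among them, are known to be induced by glucocorticoids. Of 21 clock genes tested 4 were higher and 2 lower in the Ddx3y-zero and 11 higher and none lower in the Ddx3y-positive libraries (medians 0.07 and 0.26), and the 4 higher in both were Per1, Per2, Wee1 and Rora. Over all genes 12.9% were higher and 12% lower in the Ddx3y-zero, and 21.1% and 17.4% in the Ddx3y-positive libraries. With the ranking after TMM 8 clock genes were higher and none lower in the Ddx3y-zero libraries, beside 5.75% and 2.41% of all genes. Per1, also counted among the receptor targets, ran from 32.1 to 140.8 CPM (median 83.8) and 40.4 to 210.5 CPM (median 112.3) in the Ddx3y-zero and from 23.4 to 128.7 CPM (median 72.4) and 34.2 to 173.99 CPM (median 99.8) in the Ddx3y-positive groups, and differed by 0.53 ± 0.09 and 0.56 ± 0.09 (adjusted p = 4.2e-07 and 2.0e-08). Per2 differed by 0.55 ± 0.12 and 0.74 ± 0.12, the mitotic kinase gene Wee1 by 0.69 ± 0.08 and 0.55 ± 0.08, and the nuclear receptor Rora by 0.43 ± 0.05 and 0.13 ± 0.05 (largest adjusted p 0.039). The labels give no time of harvest, so time of day and Fkbp5 cannot be told apart here.

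In the insulin and FOXO list of 18 genes, 5 were higher and 5 lower in Ddx3y-zero and 6 higher and 2 lower in Ddx3y-positive libraries, beside 12.9% and 12%, and 21.1% and 17.4%, of all genes. Foxo1 and Foxo3, transcription factors that insulin keeps out of the nucleus, were higher in both strata. Foxo3 ran from 35.04 to 64.8 CPM (median 51.8) and 46.2 to 139.9 CPM (median 80.7) in the Ddx3y-zero groups, where 47 of 56 high-Fkbp5 libraries exceeded every low-Fkbp5 one, and from 37.8 to 81.1 CPM (median 61.3) and 40.6 to 120.4 CPM (median 77.8) in the Ddx3y-positive ones. It differed by 0.70 ± 0.05 and 0.35 ± 0.05 (adjusted p = 1.3e-29 and 3.3e-10), and Foxo1 by 0.46 ± 0.05 and 0.36 ± 0.05 (adjusted p = 4.1e-13 and 5.5e-09).

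Ranked by the column sum, several genes of lipid storage were lower. Of 21 genes of lipolysis and triglyceride storage, 2 were higher and 11 lower in Ddx3y-zero and 2 higher and 6 lower in Ddx3y-positive libraries. The shares of all genes were 12.9% and 12%, and 21.1% and 17.4%. With the ranking after TMM the list held 2 and 2, and 4 and 4, beside 5.75% and 2.41%, and 20.3% and 16.5%, of all genes. G0s2, the inhibitor of the lipase ATGL, ran from 73.5 to 325.5 CPM (median 150.1) in low-Fkbp5 and 4.11 to 204.3 CPM (median 88.98) in high-Fkbp5 Ddx3y-zero libraries, where 4 of 56 lay above the low-Fkbp5 median, and differed by -0.80 ± 0.11 and -0.63 ± 0.11 (adjusted p = 4.2e-09 and 8.8e-07). Angptl8, a feeding-induced secreted inhibitor of lipoprotein lipase, was lower at -0.70 ± 0.18 and -0.77 ± 0.17 (adjusted p = 0.0012 and 1.3e-04), though with the ranking after TMM its Ddx3y-zero value was -0.43 (adjusted p = 0.12). The monoglyceride lipase Mgll had -0.16 ± 0.06 and -0.22 ± 0.05 (adjusted p = 0.02 and 4.1e-04), its Ddx3y-zero call also ending with that ranking (-0.13, adjusted p = 0.15). Cidec, a lipid droplet protein, was higher in Ddx3y-zero (0.23 ± 0.07) and lower in Ddx3y-positive libraries (-0.18 ± 0.07, adjusted p = 0.0077 and 0.022), with both calls lost under the ranking after TMM (0.18 and -0.11, adjusted p = 0.10 and 0.18).

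Cholesterol synthesis genes were lower in the high-Fkbp5 Ddx3y-positive libraries, with none of 23 higher and 16 lower (median -0.33). In the Ddx3y-zero libraries none was higher and 6 were lower (median -0.17), which fell to 1 with the ranking after TMM. Of all genes 17.4% were lower in the Ddx3y-positive and 12% in the Ddx3y-zero libraries, the latter share 2.41% with that ranking. Hmgcs1, which makes HMG-CoA, ran from 219.9 to 939.3 CPM (median 487.6) in low-Fkbp5 and 85.6 to 720.6 CPM (median 306.8) in high-Fkbp5 Ddx3y-positive libraries, where 9 of 60 lay above the low-Fkbp5 median, and differed by -0.58 ± 0.10 (adjusted p = 1.1e-06) and by -0.35 ± 0.11 in the Ddx3y-zero ones (adjusted p = 0.0076). Insig1, the sterol sensor of that pathway, differed by -0.36 ± 0.11 and -0.44 ± 0.11, and the isomerase Idi1 by -0.36 ± 0.10 and -0.39 ± 0.10. The largest adjusted p of these 4 values was 0.012, and with the ranking after TMM the Ddx3y-zero values became -0.22 and -0.15 (adjusted p = 0.24 and 0.37). Acss2, which makes acetyl-CoA from acetate, differed by -0.43 ± 0.14 and -0.44 ± 0.14 (adjusted p = 0.017 and 0.0072), again with the Ddx3y-zero call lost (-0.22, adjusted p = 0.45).

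Of 11 adipokine genes, 3 were higher and 1 lower in each stratum, beside 12.9% and 12% of all genes in the Ddx3y-zero and 21.1% and 17.4% in the Ddx3y-positive libraries. Agt, the precursor of angiotensin, ran from 10.8 to 84.3 CPM (median 32.4) and 7.6 to 247.5 CPM (median 58.5) in the Ddx3y-positive groups, differed by 0.71 ± 0.18 and 1.00 ± 0.17 (adjusted p = 8.3e-04 and 6.1e-07) and rose in the middle libraries at 0.79 ± 0.21 per doubling (adjusted p = 0.038). Leptin (Lep) was higher in high-Fkbp5 Ddx3y-zero libraries at 0.85 ± 0.25 (adjusted p = 0.0068), which was 0.40 (adjusted p = 0.40) with the ranking after TMM, and had -0.54 ± 0.25 (adjusted p = 0.069) in Ddx3y-positive ones. Nampt, which recycles NAD, had 0.15 ± 0.08 (adjusted p = 0.18) and 0.36 ± 0.08 (adjusted p = 7.8e-05), and 0.42 (adjusted p = 2.4e-06) in Ddx3y-zero libraries with that ranking.

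Outside the receptor's known targets, several gene lists ran in opposite directions in the strata when Fkbp5 was ranked by the column sum. A test of the difference between them called 5713 genes (31.1%), 16.1% with a higher and 15% with a lower difference in Ddx3y-positive libraries. This fell to 9.41% with the ranking after TMM and to 1.76% when scores of adipocyte and macrophage markers were added as covariates. Summed over their list of 14, macrophage markers had medians of 848 CPM in low-Fkbp5 and 1055 CPM in high-Fkbp5 Ddx3y-zero libraries, and 1535 and 1266 CPM in Ddx3y-positive ones. Mitosis genes were one such list. All 14 tested were higher in the Ddx3y-zero (median 0.75) and 12 were lower and none higher in the Ddx3y-positive high-Fkbp5 libraries (median -0.52). Over all genes 12.9% were higher in the Ddx3y-zero and 17.4% lower in the Ddx3y-positive libraries. Mki67, the proliferation marker Ki-67, ran from 2.77 to 36.7 CPM (median 8.3) and 2.32 to 76.2 CPM (median 13.6) in the Ddx3y-zero and from 5.6 to 77.8 CPM (median 25.6) and 2.55 to 68.004 CPM (median 14.6) in the Ddx3y-positive groups, and all 4 ranges overlapped. The differences were 0.76 ± 0.19 (adjusted p = 0.0013) and -0.63 ± 0.19 (adjusted p = 0.0043). Those of Ccna2, cyclin A2, were 0.73 ± 0.18 and -0.53 ± 0.17 (adjusted p = 5.7e-04 and 0.0081), the first of which was 0.36 (adjusted p = 0.24) with the ranking after TMM. With the ranking after TMM 1 of the 14 was higher in Ddx3y-zero libraries (median 0.40; Mki67 at 0.30, adjusted p = 0.43) and 13 were lower in Ddx3y-positive ones (median -0.55). With the marker scores as covariates the Ddx3y-zero count was 0, also at an unadjusted p under 0.05 (Mki67 at 0.03, adjusted p = 0.93) and the Ddx3y-positive count stayed 12. The matching shares of all genes were 5.75% and 16.5% with the ranking after TMM, and 9.97% and 14.4% with the scores.

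Extracellular matrix genes were another. Of 24, 10 were higher and none lower in Ddx3y-zero (median 0.27) and 1 was higher and 19 lower in Ddx3y-positive libraries (median -0.33). The shares of all genes were 12.9% and 12%, and 21.1% and 17.4%. Col4a1, the basement membrane collagen, ran from 1102 to 3069.8 CPM (median 2195) and 466.1 to 3212 CPM (median 1623) in the Ddx3y-positive groups and differed by -0.33 ± 0.08 (adjusted p = 1.9e-04), against 0.26 ± 0.08 in the Ddx3y-zero ones (adjusted p = 0.007). Col5a1 differed by 0.33 ± 0.10 and -0.36 ± 0.10 (adjusted p = 0.0061 and 0.0012). With the ranking after TMM the Ddx3y-zero count fell from 10 to 1 (Col4a1 at 0.10, Col5a1 at 0.06), while 18 were lower in the Ddx3y-positive libraries. Beside these stood 5.75% of all genes higher in the Ddx3y-zero and 16.5% lower in the Ddx3y-positive libraries. With the marker scores as covariates 1 was higher and 3 were lower in the Ddx3y-zero (median -0.13) and 2 higher and 15 lower in the Ddx3y-positive libraries (median -0.22), and the strata no longer differed by test for Col4a1 (-0.23, adjusted p = 0.097) and Col5a1 (-0.24, adjusted p = 0.20). The shares of all genes with the scores were 9.97% and 8.64%, and 13.7% and 14.4%. The 1 gene higher in both was Thbs2, a matricellular thrombospondin, at 0.90 ± 0.16 and 0.53 ± 0.16 (adjusted p = 4.8e-06 and 0.0042).

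Inflammatory genes were lower in high-Fkbp5 Ddx3y-positive fat, with none of 17 higher and 8 lower (median -0.33), and in Ddx3y-zero fat 3 were higher and 1 lower. The shares of all genes were 21.1% and 17.4%, and 12.9% and 12%. In the Ddx3y-zero libraries the inflammatory counts became none higher and 3 lower with the ranking after TMM (median -0.18), and none higher and 5 lower with the marker scores (median -0.23), with none higher at an unadjusted p under 0.05 in either. The Ddx3y-zero shares of all genes were 5.75% and 2.41% with the ranking after TMM, and 9.97% and 8.64% with the scores. Saa3, an acute phase protein of adipose tissue, differed by -1.21 ± 0.27 (adjusted p = 1.2e-04) in the Ddx3y-positive and 0.96 ± 0.28 (adjusted p = 0.0055) in the Ddx3y-zero libraries, the latter 0.16 (adjusted p = 0.83) with the ranking after TMM. Cxcl10, an interferon-induced chemokine, was lower in both at -0.47 ± 0.12 and -0.37 ± 0.11 (adjusted p = 0.0011 and 0.0063). Of the 14 macrophage markers 5 were higher and none lower in Ddx3y-zero and 2 higher and 6 lower in Ddx3y-positive libraries, beside 12.9% and 12%, and 21.1% and 17.4%, of all genes. With the ranking after TMM 2 were higher and none lower in the Ddx3y-zero libraries (median 0.01; 2 higher and 1 lower at an unadjusted p under 0.05), and with the scores, which are built partly from these markers, 2 were higher and 5 lower. The 2 higher in both were Cd163 and Lyve1, markers of resident macrophages. Cd163, the haemoglobin scavenger receptor that glucocorticoids are known to induce, ran from 55.5 to 210.1 CPM (median 110.9) and 85.02 to 362.2 CPM (median 193.997) in the Ddx3y-zero groups and differed by 0.69 ± 0.08 and 0.43 ± 0.08 (adjusted p = 3.0e-12 and 6.0e-06). Lyve1, a hyaluronan receptor, differed by 0.72 ± 0.09 and 0.45 ± 0.09 (adjusted p = 1.6e-11 and 1.1e-05).

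**Figure D4:**
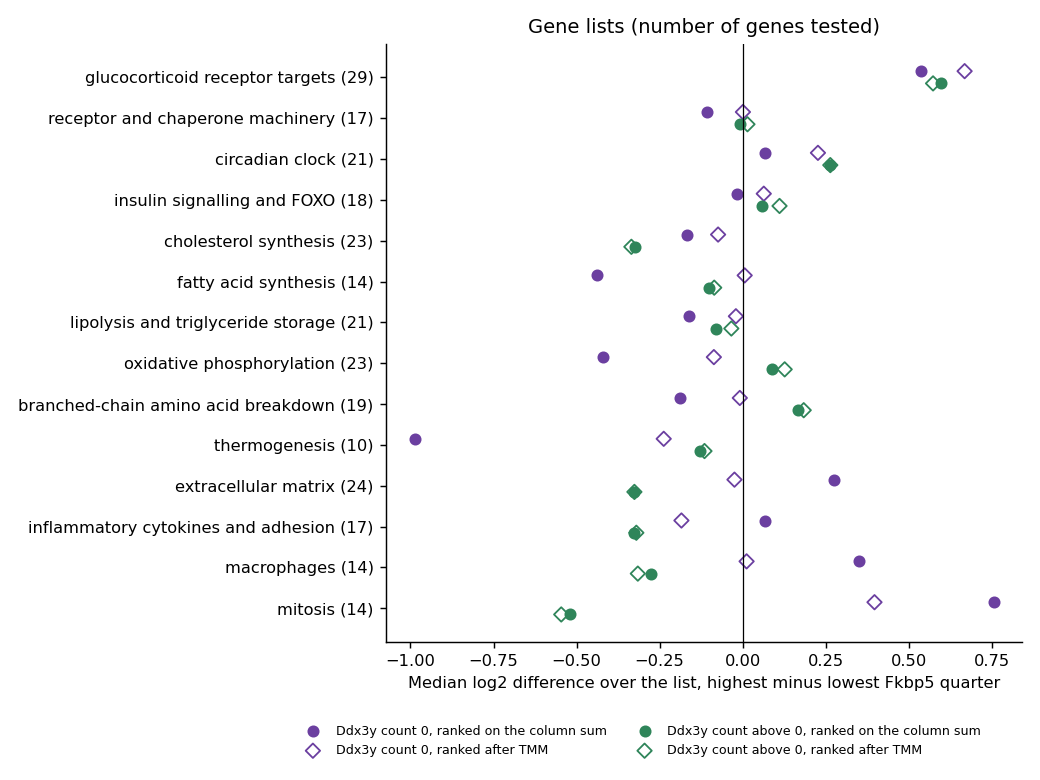
Median log2 difference between high-Fkbp5 and low-Fkbp5 groups over 14 gene lists (number of genes tested in brackets), in Ddx3y-zero (purple) and Ddx3y-positive (green) libraries, with libraries ranked by Fkbp5 CPM of the column sum (circles) or after TMM (diamonds). Receptor targets lie between 0.54 and 0.67 in the 4 readings, while oxidative phosphorylation and thermogenesis in Ddx3y-zero libraries go from -0.42 to -0.09 and from -0.99 to -0.24 with the ranking.

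Mitochondrial genes were lower in high-Fkbp5 Ddx3y-zero libraries when Fkbp5 was scaled by the column sum. All 23 nuclear genes of oxidative phosphorylation were lower there (median -0.42), none was called in the Ddx3y-positive libraries (median 0.09; 1 at an unadjusted p under 0.05, and 0 by DESeq2 and limma), and none was called in the Ddx3y-zero ones with the ranking after TMM (median -0.09, 1 at an unadjusted p under 0.05). For the lists of this paragraph, the shares of all genes higher and lower were 12.9% and 12% in the Ddx3y-zero libraries. They were 21.1% and 17.4% in the Ddx3y-positive ones. With the ranking after TMM these became 5.75% and 2.41%, and 20.3% and 16.5%. Sdha, a subunit of complex II, ran from 361.2 to 2186 CPM (median 765.5) in low-Fkbp5 and 254.5 to 1509 CPM (median 636.9) in high-Fkbp5 Ddx3y-zero libraries, with -0.44 ± 0.10 (adjusted p = 1.7e-04) under the one and -0.06 (adjusted p = 0.80) under the other ranking. Uqcrc2 of complex III had -0.52 ± 0.10 and -0.11, and Cox6c of complex IV -0.36 ± 0.08 and -0.05. The share of counts from mitochondrially encoded genes, given above, was lower in the same high-Fkbp5 group, and its part in the difference was not tested. Of 10 thermogenesis genes none was higher and 8 were lower in Ddx3y-zero libraries (median -0.99). None was called after re-ranking, with 1 higher at an unadjusted p under 0.05. Among them was Cidea at -1.04 ± 0.26 (adjusted p = 0.0011) and -0.21 (adjusted p = 0.72). In the Ddx3y-positive libraries 1 of the 10 was higher and none lower. Ddx3y-zero calls were also lost for 14 fatty acid synthesis genes (10 lower, then none, with 1 lower at an unadjusted p under 0.05). Acacb had -0.59 ± 0.17 (adjusted p = 0.0052) and then 0.05 (adjusted p = 0.92). In the Ddx3y-positive libraries 1 of the 14 was higher and 2 were lower, and the higher one was Acacb at 0.57 ± 0.16 (adjusted p = 0.0029). Of 19 genes of branched-chain amino acid breakdown 12 were lower in Ddx3y-zero libraries, then none, with 1 higher at an unadjusted p under 0.05. In turn 7 were higher and none lower in Ddx3y-positive ones, then 10. With the marker scores 10 oxidative phosphorylation, 3 thermogenesis and 2 fatty acid synthesis genes were lower in the Ddx3y-zero libraries, and 3 branched-chain amino acid genes were higher and 2 lower. Beside these stood 9.97% of all genes higher and 8.64% lower with the scores. Pccb, a subunit of propionyl-CoA carboxylase, differed by -0.36 ± 0.09 in the Ddx3y-zero and 0.24 ± 0.08 in the Ddx3y-positive libraries (adjusted p = 4.4e-04 and 0.013). With the ranking after TMM its Ddx3y-zero value was -0.12 (adjusted p = 0.49).

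Among genes called in both strata with a mean of at least 5 CPM, the largest differences often rested on few libraries. Acsbg1, an acyl-CoA synthetase, ran from 0.378 to 58.4 CPM (median 2.11) in low-Fkbp5 and 0.211 to 120.4 CPM (median 15.9) in high-Fkbp5 Ddx3y-positive libraries, with 54 of 60 above the low-Fkbp5 median (2.03 ± 0.41, adjusted p = 2.0e-05). In the Ddx3y-zero libraries it ran from 0.384 to 6.4 CPM (median 0.81) and 0.247 to 503.3 CPM (median 0.968), the maximum in DO069, and 4.26 ± 0.47 became 0.26 (adjusted p = 0.57) without the libraries carrying another tissue's transcripts. Greb1, a gene known for its response to oestrogen, ran from 0.03 to 36.1 CPM (median 0.407) and 0.0238 to 58.9 CPM (median 7.9) in Ddx3y-positive libraries (2.51 ± 0.43, adjusted p = 5.3e-07), and its Ddx3y-zero difference of 1.61 ± 0.43 fell to 0.19 (adjusted p = 0.78) without them. Epcam and Dsp, genes of epithelial junctions, had Ddx3y-positive medians of 0.625 and 11.01 CPM, and 5.1 and 20.9 CPM, with differences of 1.97 ± 0.40 and 1.54 ± 0.30 (adjusted p = 2.5e-05 and 1.0e-05). Their Ddx3y-zero calls ended without those libraries (0.98 and 0.44, adjusted p = 0.07 and 0.26), and that of Epcam also with the ranking after TMM (1.21, adjusted p = 0.053).

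Some of the other large differences showed in most mice of a group and others did not. Ripk4, a kinase of epithelial differentiation, ran from 0.883 to 25.5 CPM (median 4.42) and 1.11 to 45.6 CPM (median 15.1) in the Ddx3y-positive groups and differed by 0.95 ± 0.21 and 1.30 ± 0.20 (adjusted p = 1.4e-04 and 4.1e-08). Doc2b, a calcium sensor of vesicle and GLUT4 exocytosis, differed by 1.36 ± 0.15 and 0.98 ± 0.14 (adjusted p = 3.3e-14 and 1.0e-08), with 54 of 56 and 55 of 60 high-Fkbp5 libraries above the low-Fkbp5 median. Slc7a5, the large neutral amino acid transporter, differed by 0.98 ± 0.22 and 1.80 ± 0.21 (adjusted p = 1.8e-04 and 1.9e-12), which became 0.49 and 0.65 without the libraries carrying another tissue's transcripts and 0.91 and 0.80 with counts capped at their 99th percentile. The lymphocyte and adipocyte factor Irf4 differed by 0.90 ± 0.34 and 2.71 ± 0.35 (adjusted p = 0.039 and 5.0e-11), but its Ddx3y-zero medians were both 33.1 CPM and that call ended with counts capped at their 99th percentile (0.68, adjusted p = 0.11). The orphan receptor Nr4a3 differed by 1.74 ± 0.28 and 0.84 ± 0.27 (adjusted p = 2.8e-07 and 0.0082), with 651.7 CPM in DO349 against a group median of 3.78. The Ddx3y-zero value was 0.24 (adjusted p = 0.41) by DESeq2, and without the libraries carrying another tissue's transcripts the Ddx3y-positive value was 0.52 (adjusted p = 0.10).

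Among the genes lowest in both strata, beside G0s2 and Angptl8, were Clstn3, Dusp10 and Ffar4. Clstn3, a calsyntenin, ran from 11.9 to 151.4 CPM (median 45.99) and 4.66 to 88.5 CPM (median 23.9) in the Ddx3y-zero groups and differed by -0.97 ± 0.17 and -0.49 ± 0.16 (adjusted p = 1.2e-06 and 0.0097). The MAP kinase phosphatase Dusp10 differed by -0.69 ± 0.12 and -0.62 ± 0.11 (adjusted p = 8.0e-07 and 2.8e-06) and fell in the middle libraries at -0.53 ± 0.14 per doubling (adjusted p = 0.029). Ffar4, the receptor for long-chain fatty acids GPR120, ran from 9.6 to 39.1 CPM (median 21.4) and 3.76 to 23.2 CPM (median 12.05) in Ddx3y-zero libraries, where 4 of 56 lay above the low-Fkbp5 median (-0.79 ± 0.12, adjusted p = 2.6e-08), and differed by -0.31 ± 0.11 in the Ddx3y-positive ones (adjusted p = 0.02; -0.24 and 0.10 with the ranking after TMM).

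Of 71 tested genes starting within 2 Mb of Fkbp5, 22.5% were called in the Ddx3y-zero and 43.7% in the Ddx3y-positive libraries, beside 24.9% and 38.6% of all genes, with medians of -0.01 and 0.02. Of the 71, 9 were called in both strata in the same direction, beside 6.43% of all genes. Among these 9 is Cdkn1a (chr17:29090976-29100727), counted above as a receptor target. E230001N04Rik (chr17:28522720-28525398), which lies upstream of Fkbp5 and was named after its values were seen, ran from 0.0843 to 2.02 CPM (median 0.783) and 0.171 to 7.1 CPM (median 1.83) in the Ddx3y-zero and from 0.0759 to 2.78 CPM (median 0.76) and 0.511 to 6.8 CPM (median 1.63) in the Ddx3y-positive groups. It was higher at 1.19 ± 0.17 and 1.17 ± 0.16 (adjusted p = 5.4e-09 and 1.8e-09).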

How the data were processed

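RNA of gonadal fat was sequenced as polyA libraries with ERCC spike-ins. The deposited table of expected counts (23180 genes by 468 libraries) was made by the authors with EMASE and GBRS, which assign reads to founder haplotypes (versions not given in the sources used here), and 66.8% of its values were whole within 1e-06. The authors also deposited variance-stabilised values on a log2-like scale, and the submitters' processing notes name DESeq2 and GRCm38 without a role. Positions come from the deposited annotation, where the authors give Start and End as megabases (unit: other).

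Expected counts were rounded. Genes with at least 10 counts in 50% of libraries (18380) were fitted in edgeR 4.0.16 (glmQLFit, glmQLFTest, TMM), without Fkbp5 and the Y-linked genes, leaving 18370, over the 232 of 468 libraries in the 4 groups (56 and 56 of 227 Ddx3y-zero, 60 and 60 of 241 Ddx3y-positive, ranked by Fkbp5 CPM of the column sum, with 115 and 121 middle libraries). Contrasts were high minus low per stratum and their difference. In the middle libraries 1 slope on log2 Fkbp5 CPM was fitted with stratum. Thresholds were an adjusted p under 0.05 and, second, 1.5-fold. The code was tested on simulated counts. Alternatives used DESeq2 1.42.0 and limma 3.58.1 (R 4.3.3). The rule for named genes was all receptor targets and machinery, the 12 largest and 12 smallest mean differences called in both strata at 5 CPM or more, the 4 strongest differences between strata on each side, up to 4 members of each other list with the lowest larger p, and the 8 genes most like Fkbp5 in the middle libraries (both also at 5 CPM or more). The groups, lists and alternatives were chosen with earlier results of these data known. P-values measure the spread between single mice, and no technical replicates were given. Of 23180 gene identifiers, 99.2% sit at the positions of GENCODE M21 (GRCm38). Strand of counting is not given in the sources used here, so reads of overlapping opposite genes may be shared. Fkbp5, which ranked the libraries, itself overlaps AC154912.1 and Gm22146 on the opposite strand. Hif3a, Mertk, Mt2, Cebpb, Cebpd, Errfi1, Sult1a1 and Slc10a6 are among the other named genes that overlap an opposite gene.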

Additional observations from a re-analysis of the deposited data

Results flagged for a closer look

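The difference between high-Fkbp5 and low-Fkbp5 libraries was itself different in the Ddx3y-positive and the Ddx3y-zero stratum for 5713 genes by edgeR's interaction test at an adjusted p under 0.05. Values below are the Ddx3y-positive minus the Ddx3y-zero log2 difference. Of the 42 named genes with such a difference, 31 kept it with the ranking after TMM and 18 with adipocyte and macrophage scores as covariates.

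Receptor targets with a value below 0 were Mt2 (-1.52 ± 0.23, adjusted p = 2.0e-07), Tsc22d3 (-0.61), Mertk (-0.55), Mt1 (-0.48), Cdkn1a (-0.43), Map3k6 (-0.32) and Angptl4 (-0.29). Pdk4 had the opposite sign (0.67). Values below 0 were also found for Slc10a6 at -0.50, Foxo3 at -0.35, Aff1 at -0.30 and the clock gene Rora at -0.30. Around the receptor, Nr3c1 had 0.18, Nr3c2 0.34 and Fkbp4 0.37.

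Proliferation, matrix and inflammatory genes were lower in Ddx3y-positive relative to Ddx3y-zero contrasts: Mki67 had -1.39, Ccna2 -1.26, Ube2c -1.24, Col4a1 -0.59, Col5a1 -0.69 and Saa3 -2.17. Mitochondrial and lipid genes went the other way: Sdha had 0.63, Uqcrc2 0.68, Cox6c 0.50, Pccb 0.61, Cidea 1.39, Acacb 1.16 and Ffar4 0.47, while Cidec had -0.40 and Lep -1.39. With the ranking after TMM, Sdha, Uqcrc2, Cox6c, Cidea, Acacb, Ffar4, Lep, Angptl4, Pdk4, Fkbp4 and Irf4 no longer passed. With the scores the same 11 failed, and so did Mt1, Map3k6, Cdkn1a, Nr3c1, Nr3c2, Pccb, Col4a1, Col5a1, Acsbg1, Slc7a5, Suox, Slc10a6 and Adam28.

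The strongest differences between strata at a mean of at least 5 CPM included genes carried by single libraries. Ceacam10 had 9.79, with a Ddx3y-positive maximum of 17019 CPM in DO283 against a group median of 0.279, and its Ddx3y-positive difference went from 7.57 to 0.70 (adjusted p = 0.30) without libraries carrying another tissue's transcripts. Akr1cl had -5.10, with 901.9 CPM in DO032, Cyp11a1 -6.19, Adam28 6.003 and Acsbg1 -2.23. With the scores as covariates 3 of the named genes changed sign and did not pass: Adam28 had -0.24, Acsbg1 0.46 and Irf4 -0.11 (adjusted p = 0.92, 0.68 and 0.94). The others were Sorcs2 (2.60), Suox (1.14), Znrf3 (0.52), Slc22a4 (-0.70), Sesn1 (-0.52), Irf4 (1.82) and Slc7a5 (0.82). Sesn1, a stress-induced inhibitor of mTORC1, ran from 23.2 to 51.3 CPM (median 35.8) and 28.1 to 167.6 CPM (median 47.9) in the Ddx3y-zero groups (0.56 ± 0.06, adjusted p = 2.0e-16) and had 0.05 ± 0.06 in the Ddx3y-positive ones (adjusted p = 0.55). Znrf3, an inhibitor of Wnt receptors, differed by -0.16 ± 0.05 and 0.36 ± 0.05 (adjusted p = 0.02 and 6.2e-09), with -0.03 (adjusted p = 0.83) in Ddx3y-zero libraries with the ranking after TMM.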

How the results depend on the processing

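Of the shares of genes called in either direction, those given next moved by over 1.5 times. With libraries ranked by Fkbp5 CPM after TMM, the Ddx3y-zero calls went from 24.9% to 8.15% and the differences between strata from 31.1% to 9.41%. With adipocyte and macrophage scores as covariates, calls in 1 direction in both strata went from 6.43% to 9.72% and differences between strata to 1.76%. Scaled by total counts alone, calls in both strata were 10.7%, of which 10.1% were higher. The 0.773% of slopes called in the middle libraries became 0.196% with limma, 0.435% with mouse number blocks, 0.474% with library number blocks, 0.501% without libraries that stand apart, 1.3% without the filter on low counts, 0.223% with counts capped at the 99th percentile and 1.68% with Fkbp5 scaled by TMM. Capping counts, scaling Fkbp5 by TMM in the middle libraries and leaving out libraries with another tissue's transcripts were chosen after seeing the data. With 75 and 80 libraries a group, mouse number in Ddx3y-zero libraries differed by -64.4 (adjusted p = 0.051) instead of -79.95. Shares in 1 direction moved too. Calls lower in both strata went from 2.17% to 1.2% with the ranking after TMM, 4.51% with the scores and 0.528% with total counts alone, the Ddx3y-positive lower calls from 17.4% to 8.62% with total counts alone and the higher ones from 21.1% to 13.7% with the scores. With groups chosen within mouse number blocks, 11 matrix and 5 inflammatory genes were lower in Ddx3y-positive libraries instead of 19 and 8.

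For the 95 named genes in each stratum under 14 alternatives (2660 values), 5.0% lost and 17 gained the call, and 28 changed sign, 4 of them with a call in either fit. Those 4 were Acacb in Ddx3y-zero libraries at 0.0474 (ranking after TMM), Col5a1 at -0.0065 (scores) and Ckm at -0.025 (limma) and -0.54 (without libraries carrying another tissue's transcripts). The cause was not tested. Of the lost calls, 30 came with the ranking after TMM and 26 with the scores. No paired analysis was possible because all libraries share 1 label group and no mouse gave 2 libraries.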
